A study of Mus musculus with 2 samples.

Results

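Elastic fibre and fibulin genes code for the core, the microfibril scaffold and the assembly factors of the fibres that let vessel walls recoil. The set comprised 10 genes: Eln, Fbn1, Fbn2, Efemp1, Efemp2, Fbln1, Fbln2, Fbln5, Mfap4 and Mfap5. They were taken by symbol, and each symbol matched 1 of the 31053 genes counted. The data came from cultured brain pericytes (PCs), the mural cells of capillaries, of C57BL/6N wild-type female mice aged 6 to 8 weeks, with the brains of 6 mice pooled in an isolation. PC5 cells were taken at passage 5 and PC20 cells at passage 20, with no transgene, treatment or sort, and both cultures passed from endothelial growth medium to a commercial pericyte medium on collagen-coated plates. Each passage was 1 single-cell library, and by the methods of the study each came from a different isolation, so passage, isolation and library cannot be told apart and no test between passages was possible. The question the comparison addresses is how pericytes change with time in culture, here for the elastic fibre genes.

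An elastic fibre is built in the extracellular space. Fibrillins polymerise into microfibrils, microfibril-associated proteins bind to them, and tropoelastin, the product of Eln, is deposited onto this scaffold and crosslinked by lysyl oxidases. Short fibulins (fibulin-3, -4 and -5) bring tropoelastin and the crosslinking enzymes together, while fibulin-1 and fibulin-2 bind elastic fibres and basement membranes. In arteries these proteins come mainly from smooth muscle cells and fibroblasts. Capillary pericytes sit in a basement membrane without elastic laminae.

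After barcodes with 1000 genes or fewer, or with 20% or more of their UMIs from mitochondrial genes, were dropped, PC5 had 9950 cells and PC20 had 4749. A UMI is 1 captured RNA molecule, counted at the 3′ end of the transcript, so counts were not divided by gene length, and capture can still differ between genes. Median depth was 21700 UMIs per cell in PC5 and 33424 in PC20. Levels are UMIs summed over the cells of a library and scaled to a total of 1000000 (CPM), with a 95% Poisson interval. Shares of cells were read after random thinning of every cell to 10500 UMIs. Too shallow for this were 1103 cells of PC5 and 275 of PC20. All intervals cover counting error within a library only. The libraries had 20 cell barcodes in common. Among 10 genes of other lineages, which the culture should not make, the widest found was in 0.0678% of thinned PC5 cells and 0.0671% of thinned PC20 cells, and a share at or below that was read as background. Free RNA of genes abundant in the culture can be higher and was not measured.

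Message of the elastic fibre genes was higher in PC5 than in PC20, and most of it was fibulin message. The 10 genes summed to 1493 CPM in PC5 and 202 CPM in PC20. Fbln2 alone made up 42.6% of these UMIs in PC5 and 67.7% in PC20. The 3 highest genes made up 85.9% and 95.3%. Of the 10 genes, 9 had the higher CPM in PC5, and Eln had the higher CPM in PC20. Among the 9 was Mfap4, on 19 UMIs against 1. The share of all genes with the higher CPM in PC5 is not given here. A UMI in at least 10% of unthinned cells of either library was found for 8 genes, all but Eln and Mfap4, and all 8 were at least 2-fold higher in PC5. Over the 10504 genes that met the same limit, 17.9% were at least 2-fold higher in PC5 and 19.1% in PC20. Fbn2, Efemp1, Fbln1 and Mfap5 met it in PC5 alone, so for these 4 a difference followed from the limit. In PC5 the order by CPM was Fbln2, Efemp1, Fbn1, Efemp2, Fbln1, Mfap5, Fbln5, Fbn2, Eln and Mfap4, with no overlap of intervals between neighbours. In PC20 it was Fbln2, Efemp2, Fbn1, Fbln5, Fbln1, Eln, Fbn2, Mfap5, Efemp1 and Mfap4, and the intervals of the last 3 overlapped.

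**Figure D1:**
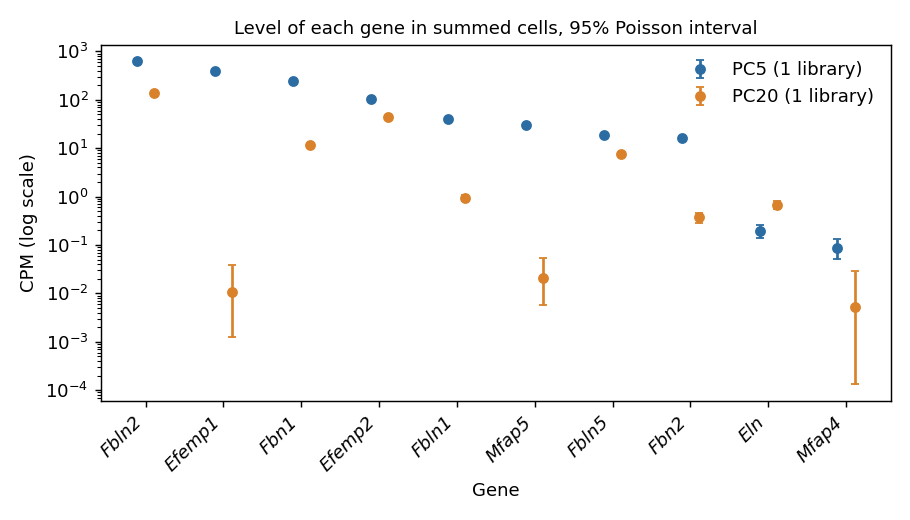
Level of each gene in the PC5 and PC20 libraries, as CPM on a log axis, 1 point per library with its 95% Poisson interval and genes in the order of their PC5 level. Every gene but Eln sits higher in PC5, from 637 against 136 CPM for Fbln2 to 396 against 0.0105 CPM for Efemp1.

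The short fibulins Efemp1 and Efemp2 differed from each other between the libraries, although their products are close relatives. Efemp1 codes for fibulin-3, and Efemp2 for fibulin-4, which is needed for elastin crosslinking. Efemp1 was read at 396 CPM in PC5 (88336 UMIs, interval 393 to 399) and at 0.0105 CPM in PC20 (2 UMIs, interval 0.00127 to 0.0378), a log2 ratio of 15.21 with a counting interval of 13.35 to 18.25. It was found in 95.7% of thinned PC5 cells and in 0 of 4474 thinned PC20 cells, which allows a share of up to 0.0671% by a floor of 3 counts and of up to 0.0824% by the 2-sided Clopper-Pearson interval. Efemp1 was thus among the most widely found genes of the set at passage 5 and could not be told from background at passage 20. Efemp2 was read at 105 CPM in PC5 (interval 103 to 106) and 43.6 CPM in PC20 (42.7 to 44.6), a 2.40-fold difference. It was in 64.9% and 34.2% of thinned cells. In PC20, message above background was thus read for Efemp2 and not for Efemp1. The RefSeq sequences of the 250 bases before the annotated starts of these 2 genes (GRCm38.p6) are shown. Capitals mark CG dinucleotides, the sites of DNA methylation, which was not measured here. The Efemp1 stretch, on the plus strand at chr11:28852955-28853204, holds 10 of them. The Efemp2 stretch, on the plus strand at chr19:5473696-5473945 and the most upstream of its 3 annotated starts, holds 15. The stretches before its other starts, not shown, hold 27 and 33. Across 32851 promoters the median was 6, with quartiles of 2 and 16.
Efemp1: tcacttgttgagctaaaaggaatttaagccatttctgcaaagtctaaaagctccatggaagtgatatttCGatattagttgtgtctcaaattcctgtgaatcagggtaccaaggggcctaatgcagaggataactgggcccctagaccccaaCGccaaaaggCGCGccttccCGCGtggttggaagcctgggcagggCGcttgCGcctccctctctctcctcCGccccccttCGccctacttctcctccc
Efemp2: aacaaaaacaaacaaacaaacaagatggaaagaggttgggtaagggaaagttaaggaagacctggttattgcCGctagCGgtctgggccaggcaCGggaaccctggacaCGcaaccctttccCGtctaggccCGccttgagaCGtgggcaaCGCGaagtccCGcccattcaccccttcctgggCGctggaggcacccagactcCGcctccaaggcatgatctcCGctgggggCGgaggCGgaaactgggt
RefSeq promoters were matched for 6 of the 10 genes, and Eln, Fbn2, Mfap4 and Mfap5 had no entry. Both strands were searched for 4 motifs: TATAAA (in 12.4% of all promoters), TGACTCA, the AP-1 motif (4.46%), GGAATG, the TEAD motif (12.6%), and CAGACA, a SMAD motif (17.1%). None of these letters is in the Efemp1 or Efemp2 stretch. CAGACA was the only one found, before both starts of Fbln1 and before 1 of the 2 starts of Fbln5. The Fbln1 stretches overlap, and the hit in both is the same site.

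Fibulin-5, the product of Fbln5, tethers tropoelastin to microfibrils and to cell-surface integrins. Fbln5 was read at 18.4 CPM in PC5 (interval 17.8 to 19.0) and 7.46 CPM in PC20 (7.07 to 7.85), a 2.47-fold difference, and was in 16.1% and 7.22% of thinned cells. Its fold was close to that of Efemp2, with log2 ratios of 1.30 (interval 1.22 to 1.39) and 1.26 (1.23 to 1.30), so within counting error the 2 genes could not be separated. These were the smallest differences of the 10 genes.

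The larger fibulins differed in level and in how far PC20 lay below PC5. Fibulin-2, the product of Fbln2, joins microfibrils and basement membranes. Fbln2 was the highest gene of the set in both libraries. PC5 held 637 CPM (interval 634 to 640) and PC20 held 136 CPM (135 to 138), a 4.67-fold difference. It was in 97.3% of thinned PC5 cells and 66.3% of thinned PC20 cells. Fibulin-1, the product of Fbln1, is a calcium-binding protein of elastic fibre cores and basement membranes. Fbln1 was read at 40.7 CPM in PC5 (39.9 to 41.6) and 0.952 CPM in PC20 (0.819 to 1.10), a 42.7-fold difference. Its share of thinned cells was 31.7% in PC5 and 0.782% in PC20, above the background share of that library.

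The fibrillins, which form the microfibrils, were both far lower in PC20. Fbn1, the main fibrillin of adult tissue, was read at 250 CPM in PC5 (interval 248 to 252) and 11.9 CPM in PC20 (11.5 to 12.4), a 21.0-fold difference, and was in 84.4% and 11.4% of thinned cells. Fbn2, the fibrillin of developing tissue, was read at 16.1 CPM in PC5 (15.6 to 16.6) and 0.371 CPM in PC20 (0.290 to 0.469), a 43.3-fold difference. It was in 13.1% of thinned PC5 cells and 0.313% of thinned PC20 cells. Fbn1 was thus the higher fibrillin in both libraries, and the PC20 message of Fbn2 was still above background.

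Of the microfibril-associated genes, Mfap5 was read almost only in the PC5 library and Mfap4 was hardly read. Mfap5 codes for MAGP-2, a small protein that binds fibrillin microfibrils. It was read at 30.0 CPM in PC5 (interval 29.3 to 30.8) and at 0.0209 CPM in PC20 (4 UMIs, 0.00570 to 0.0536), a log2 ratio of 10.49 with an interval of 9.13 to 12.36. Its share was 22.6% of thinned PC5 cells and 0.0447% of thinned PC20 cells, the latter at background. Mfap4, whose product binds elastin and fibrillin, had 19 UMIs in PC5 and 1 in PC20. Its share of 0.0678% of thinned PC5 cells and 0.0224% of thinned PC20 cells was background in both, and its log2 ratio of 4.03 has an interval of 1.37 to 9.40.

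Elastin itself was all but missing. Eln was read at 0.193 CPM in PC5 (43 UMIs, interval 0.140 to 0.260) and 0.680 CPM in PC20 (130 UMIs, 0.568 to 0.808), 3.53-fold higher in PC20. It was the only gene of the set with the higher level in PC20. Thinned shares were 0.215% in PC5 and 0.469% in PC20, with intervals of 0.129% to 0.335% and 0.291% to 0.717% that overlapped, and both lay above background. Fbln2 thus stood at 637 CPM in a library where the message of the elastic core was under 1 CPM. The 43 PC5 UMIs of Eln lay in 41 cells, with at most 2 in a cell. The 130 PC20 UMIs lay in 67 cells, with 24 cells holding at least 2, 5 cells holding at least 5 and at most 9 in a cell.

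**Figure D2:**
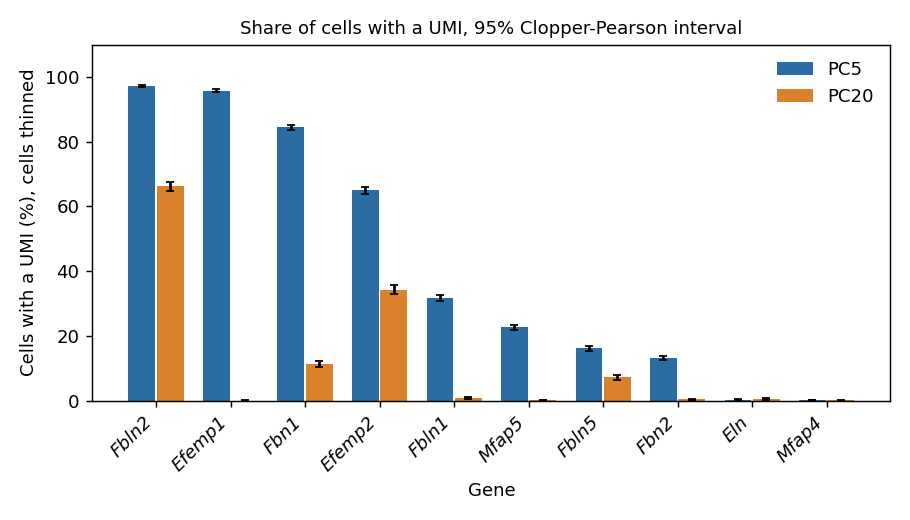
Share of cells with at least 1 UMI of each gene after every cell was thinned to 10500 UMIs, with 95% Clopper-Pearson intervals, over 8847 PC5 and 4474 PC20 cells. Fbln2 and Efemp1 were in nearly all PC5 cells, Fbln2 and Efemp2 were the widest in PC20, and the bars of Efemp1 and Mfap5 all but vanish in PC20.

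Single PC5 cells held several of these messages at once. After thinning, the median PC5 cell had a UMI of 4 of the 10 genes and the median PC20 cell of 1. At least 4 were found in 77.3% of PC5 cells and in 0.425% of PC20 cells, and the highest number was 8 in PC5 and 5 in PC20. None was found in 7 PC5 cells (0.0791%) and in 870 PC20 cells (19.4%). The difference was thus seen in most cells of each library and not in a few.

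**Figure D3:**
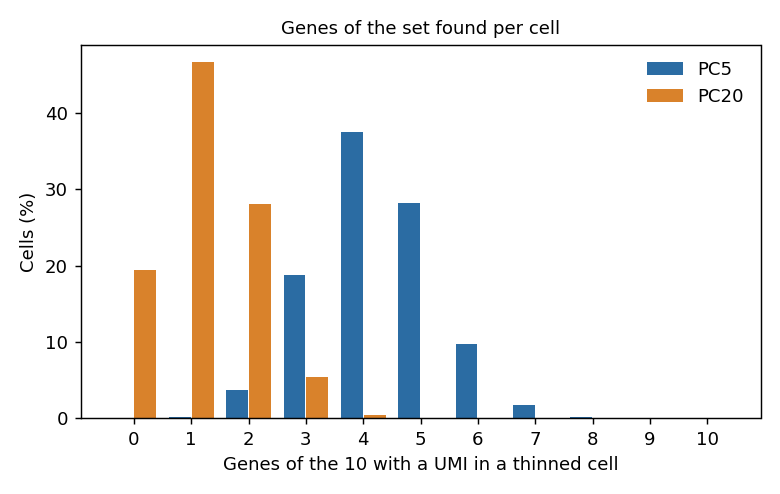
Number of the 10 genes with a UMI in each cell thinned to 10500 UMIs, as the percent of 8847 PC5 and 4474 PC20 cells. PC5 peaks at 4 genes (37.5% of cells) and PC20 at 1 gene (46.6%), with 19.4% of PC20 cells at 0.

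Over PC5 cells the variance of thinned UMIs relative to their mean was highest for Fbln2, the gene with the highest level. Its thinned UMIs had a median of 6 per cell, with 10% of cells at 2 or below, 10% at 13 or above and a highest value of 60, and the variance was 3.93 times the mean. In PC20 the median was 1, the highest value 13 and the variance 1.65 times the mean. The mean of Fbln2 was 6.69 in PC5 and 1.39 in PC20. Where cells differ in level, this ratio rises with the mean, so it does not compare relative spread between genes or libraries. Efemp1 (2.07), Fbn1 (1.95) and Fbn2 (1.86) followed in PC5, where a ratio of 1 is what counting alone gives. The tenth of PC5 cells with the most Fbn2 held 83.2% of its thinned UMIs, a value that a gene in 13.1% of cells reaches largely by being sparse. For Efemp1, in 95.7% of cells, the value was 24.4%.

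Co-expression within PC5 was weak and did not run one way. Over the 8 genes in at least 10% of thinned PC5 cells, the 28 pairs had a median Pearson's r of 0.042 on log2(thinned UMIs + 1), with 20 pairs above 0. All pairs of 7439 genes had a median of 0.0052, with the central 95% between -0.0457 and 0.0561. The highest pair was Fbln2 with Mfap5 (r = 0.14), followed by Fbn2 with Fbln1 (r = 0.11). The lowest was Fbn2 with Fbln2 (r = -0.16). Fbln2 was also the gene with the lowest r to Fbn2 once mitochondrial and ribosomal protein genes and unnamed gene models were left out. Fbn2 and Fbln1 were found together in 5.52% of PC5 cells, where unrelated shares would give 4.16%. These are correlations across cells of 1 library that share its free RNA and culture, and the counts are sparse. In PC20 only Fbn1, Efemp2 and Fbln2 were wide enough, and their 3 pairs lay between 0.029 and 0.056. All pairs of 7290 PC20 genes had a median of 0.0044, with the central 95% between -0.0492 and 0.0601, which held all 3.

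**Figure D4:**
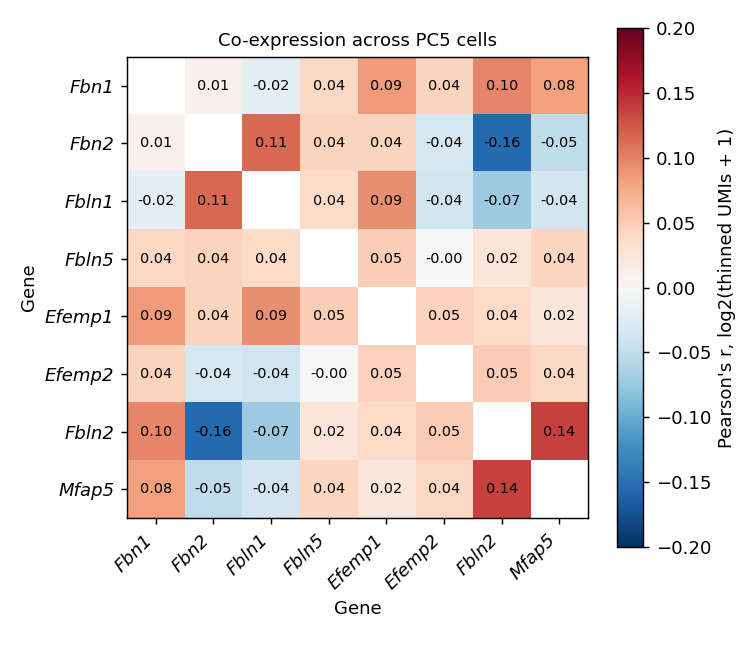
Pearson's r between 8 genes across 8847 PC5 cells thinned to 10500 UMIs, on log2(thinned UMIs + 1), with red above 0 and blue below. Fbln2 pairs with Mfap5 (0.14) and stands apart from Fbn2 (-0.16) and Fbln1 (-0.07), while Fbn2 pairs with Fbln1 (0.11).

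The size of the opposite course of Fbln2 and Fbn2 is given here by level, from the same thinned PC5 counts as the correlation, in a split chosen after that value was seen. It describes that correlation and adds no support to it. In the 2539 cells with 0 to 3 thinned Fbln2 UMIs, Fbn2 averaged 0.304 UMIs per cell (95% interval 0.283 to 0.326). It averaged 0.178 in cells with 4 to 6, 0.138 in cells with 7 to 9 and 0.0800 (0.0678 to 0.0938) in the 1912 cells with 10 to 60. No Poisson interval of one class reached that of the next. The variance of Fbn2 over PC5 cells was 1.86 times its mean, so these intervals are narrower than the spread over cells implies. Median depth before thinning was 21973, 23574, 23621 and 23394 UMIs in the 4 classes. Fbln1 went the same way, from 0.499 in the lowest class to 0.334 in the highest. Mfap5 went the other way, from 0.204 to 0.437, and so did Lox, the lysyl oxidase that crosslinks elastin and collagen, from 1.85 to 4.98. Efemp1 differed little by comparison, with 4.16 in the lowest and 4.45 in the highest class.

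Among the genes most like each member in PC5 were Lox, Postn and fibrillar collagens. Fbln2 was closest to Lox (r = 0.33), Ahnak (0.33) and Bgn (0.32), and Mfap5 to Cryab (0.19), Crct1 (0.19) and Emp1 (0.17). Fbn2 was closest to Postn, the matrix protein periostin (0.19), Col3a1 (0.16) and Clu (0.15). Fbln1 was closest to Clu (0.14), Postn (0.14) and Fmo2 (0.14), and Fbln5 to Postn (0.13), Col1a1 (0.12) and Col1a2 (0.12). Postn was thus among the nearest genes of Fbn2, Fbln1 and Fbln5. Fbn1 had the highest single value, 0.34 with Col3a1, and its next genes were Sparc (0.31) and Fstl1 (0.29). Efemp1 had Spp1 (0.25) and Col3a1 (0.23) among its nearest genes, and Efemp2 was closest to Atp5e (0.15), Selenop (0.14) and Ctsd (0.14). In PC20, Fbln2 was closest to Dcbld2 (0.22), Ncam1 (0.21) and Wnk1 (0.21), Efemp2 to Mgp (0.12), Tmem176a (0.11) and Id3 (0.11), and Fbn1 to Wnk1 (0.09), Sparc (0.07) and Msmo1 (0.07). Lox had an r of 0.06 with Fbln2 there, above 97.9% of all pairs of PC20 genes compared. Col3a1, the nearest gene of Fbn1 in PC5, is a collagen of the fibroblast marker list.

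Cells with periostin message had more Fbn2 and less Fbln2. Thinned cells with a UMI of Postn (2786) were set against those without (6061), at median depths of 22924 and 23162 UMIs. Fbn2 averaged 0.305 UMIs in the first and 0.130 in the second, a log2 ratio of 1.23 (interval 1.09 to 1.38). Fbln5 (0.71, 0.57 to 0.85) and Fbln1 (0.61, 0.52 to 0.70) were also higher, Fbn1 (0.34) and Efemp1 (0.25) less so, and Fbln2 was lower (-0.37, -0.40 to -0.34). Over 7438 genes the median for this split was 0.07, with the central 95% between -0.26 and 0.42. Fbn2, Fbln5, Fbln1 and Fbln2 lay outside that range. The split uses the same thinned counts as the correlation of Fbn2 with Postn and adds no support to it. Intervals of this and the later splits cover counting error only. The variance in PC5 was 3.93 times the mean for Fbln2 and 1.86 times for Fbn2, so these intervals are narrower than the spread over cells implies. In cells with a UMI of Hgf, the growth factor of hepatocytes and epithelia, Fbn2 was higher (0.57, 0.35 to 0.78) and Mfap5 lower (-0.74, -0.99 to -0.50), as was Fbln2 (-0.39). The reference genes, Hgf and Cyp26b1 among them, were chosen with earlier results of these data known, so these splits are descriptions only.

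Cells with contractile markers had more Mfap5 and Fbln5. In PC5 cells with a UMI of Tagln, an actin-binding protein of smooth muscle, Mfap5 (0.59, interval 0.48 to 0.71), Fbln5 (0.49, 0.34 to 0.63) and Fbln2 (0.25, 0.23 to 0.28) were higher and Fbn1 was at -0.03 (-0.07 to 0.01). The central 95% of all genes for this split was -0.30 to 0.22, and Mfap5, Fbln5 and Fbln2 lay outside it. With Acta2, Fbln5 (0.41) and Mfap5 (0.35) lay outside the range of all genes, -0.29 to 0.28. With the proliferation genes Mki67 or Top2a, Efemp1 (-0.22), Efemp2 (-0.18) and Mfap5 (-0.27) were lower and Fbn2 was higher (0.23, 0.09 to 0.38). All of these lay within the central 95% of all genes for the cycling split, -0.41 to 0.79. With Pdgfrb, the pericyte receptor for PDGF-B, all 8 genes were higher, from 0.09 for Efemp2 and Efemp1 to 0.41 for Fbln5, but 5 of them lay within the central 95% of all genes, -0.17 to 0.21. Outside it were Fbln5, Mfap5 (0.34) and Fbln2 (0.23). With Rgs5, another pericyte marker read in 139 cells, Fbn2 was lower (-0.89) with an interval of -1.76 to -0.14. That value rests on 14 Fbn2 UMIs in the cells with Rgs5. Of the other reference genes, the chemokine gene Cxcl12 went with more Mfap5 (0.46) and less Fbn2 (-0.47), Thbs1 with more Fbln5 (0.54), Cyp26b1 with more Fbn2 (0.32) and Cdkn1a with less Fbln5 (-0.34, within the central 95% of all genes for that split, -0.42 to 0.37). Pdgfra, a fibroblast marker, moved none of the 8 genes plotted by more than 0.27, and Cspg4, a pericyte marker, went with more Fbln5 (0.40). The intervals of the values named for Cxcl12, Thbs1, Cyp26b1 and Cdkn1a excluded 0, by counting error alone.

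**Figure D5:**
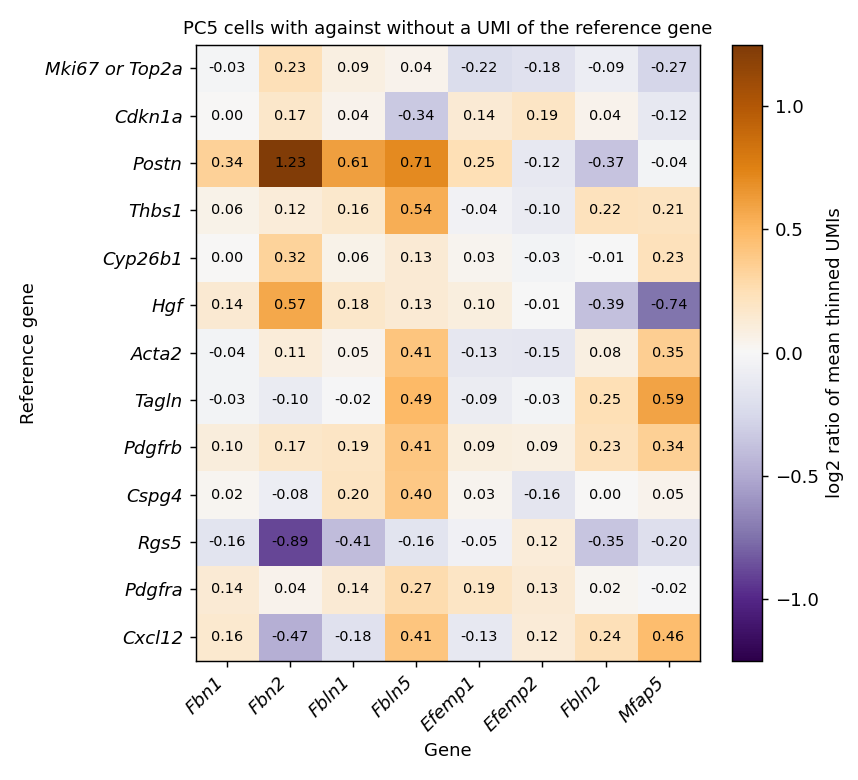
Log2 ratio of mean thinned UMIs of 8 genes in PC5 cells with against without a UMI of each reference gene, with brown higher and purple lower in cells with it. The Postn row is highest for Fbn2 (1.23), Fbln5 (0.71) and Fbln1 (0.61) and lowest for Fbln2 (-0.37), while Mfap5 is highest with Tagln (0.59) and lowest with Hgf (-0.74).

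In PC20, Eln was higher in cells with Thbs1 and in cells with Pdgfrb, of the 6 reference splits with enough cells. Thinned cells with a UMI of Thbs1, the matrix protein thrombospondin-1, numbered 200 and held 10 of the 23 thinned Eln UMIs. Eln was in 4.50% of them and in 0.281% of the 4274 others, a log2 ratio of means of 4.04 (interval 2.69 to 5.34). The 235 cells with a UMI of Pdgfrb gave 2.98 (1.46 to 4.34), on 7 Eln UMIs in those cells. The other 4 splits gave Eln intervals that included 0. With Thbs1, Fbln1 was at 1.79 (0.07 to 3.16), Efemp2 at 0.66 (0.39 to 0.91), Fbln5 at 0.80 (0.16 to 1.38) and Fbln2 at 0.34 (0.18 to 0.49). Over 7290 genes, each in at least 10% of thinned PC20 cells, the central 95% for the Thbs1 split was -0.85 to 0.91. That range holds Efemp2, Fbln5 and Fbln2. It gives no background for Eln and Fbln1, which were in 0.469% and 0.782% of thinned PC20 cells. Their ratios rest on 10 and 5 UMIs in the cells with Thbs1. The range of all genes for the Pdgfrb split likewise gives no background for Eln. Fbn2 was higher with Cdkn1a (3.05), with a wide interval of 0.36 to 8.44. In cells with a UMI of Acta2, smooth muscle actin, Fbn1 was higher (0.52, 0.23 to 0.80). With Mki67 or Top2a, Fbn1, Efemp2, Fbln2 and Fbln5 had intervals that included 0.

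The partners of the set did not follow it as a block. Of 42 genes found from a list of crosslinking, microfibril, processing, receptor and degrading partners, 27 were in at least 10% of cells of either library. At least 2-fold higher in PC5 were 11, at least 2-fold higher in PC20 were 4, and 12 differed less, with a median log2 ratio of 0.76 beside -0.03 over all 10504 genes. Over those 10504 genes, 17.9% were at least 2-fold higher in PC5 and 19.1% in PC20. The 4 of 27 higher in PC20 lay below the share over all genes. Highest in PC5 were Ctsk, the elastin-degrading cathepsin K (log2 ratio 7.31), the elastin-microfibril interface genes Emilin1 (6.50) and Emilin2 (5.34), Mfap2, which codes for MAGP-1 (6.25), and the matrix protease Mmp2 (3.86). Highest in PC20 were the lysyl oxidase-like Loxl4 (-2.25), the growth factor Tgfb2 (-2.04), the latent TGF-β binding protein Ltbp3 (-1.56), the elastin-assembly sialidase Neu1 (-1.06) and Loxl3 (-0.64). Of these named genes, Ctsk, Emilin1, Emilin2 and Mfap2 met the 10% limit in PC5 alone, and Loxl4 and Tgfb2 in PC20 alone. For them a difference followed from the limit.

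The crosslinking genes did not share a direction. Lox stood at 269 CPM (PC5) and 138 CPM (PC20), and Loxl1, which crosslinks elastin with fibulin-5, at 115 and 67.7 CPM. Their log2 ratios of 0.97 (interval 0.94 to 0.99) and 0.76 (0.73 to 0.79) lay below that of every one of the 8 wider genes of the set. Loxl2 stood at 243 and 43.6 CPM, a log2 ratio of 2.48 that lay above those of Efemp2, Fbln5 and Fbln2, and Loxl3 and Loxl4 had the higher level in PC20. Ltbp1, a fibrillin relative, stood at 149 and 137 CPM, and Fn1, the fibronectin on which microfibrils assemble, at 520 and 413 CPM. In PC20 Lox thus stood above Fbn1 (138 against 11.9 CPM), while in PC5 the 2 were at like levels (269 against 250 CPM).

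Of the marker lists, those of fibroblasts, smooth muscle cells, pericytes, endothelial cells and microglia had lower sums in PC20, as the set had. The 6 fibroblast markers summed to 3614 CPM in PC5 and 107 CPM in PC20, with 5 and 1 of them in at least 10% of cells and Lum at 0 in PC20. The 4 smooth muscle markers summed to 283 and 49.6 CPM, a difference set by Tagln (219 and 0.230 CPM), while Acta2 was at 62.8 and 49.2 CPM. The 9 pericyte markers summed to 67.2 and 10.6 CPM, with 3 of the 9 at 0 in PC20 and 1 of the 9 in at least 10% of its cells. Of the pericyte markers, Anpep went the other way (1.93 and 3.00 CPM), and Abcc9 had 1 UMI in each library. The 4 endothelial markers summed to 181 and 0.246 CPM, of which Cdh5 alone gave 168 CPM in PC5. The 4 astrocyte markers summed to 151 and 229 CPM, a direction set by Slc4a4 (143 and 229 CPM), while Aldh1l1 (7.35 and 0.0262 CPM), Gfap and Aqp4 were lower in PC20. Microglial markers (4.04 and 0.795 CPM) and oligodendrocyte markers (0.915 and 0.895 CPM) had low sums. The part of cell makeup in the differences between PC5 and PC20 was not tested.

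All 10 genes are protein-coding and lie apart, except that chromosomes 6 and 11 hold a pair each (GENCODE M21, GRCm38). Eln (ENSMUSG00000029675) is at chr5:134702593-134747323, minus strand, and Fbn1 (ENSMUSG00000027204) at chr2:125300594-125507993, minus strand. Fbn2 (ENSMUSG00000024598) is at chr18:58008623-58210487, minus strand. Efemp1 (ENSMUSG00000020467) is at chr11:28853204-28926743 and Mfap4 (ENSMUSG00000042436) at chr11:61485431-61488900, both on the plus strand. Efemp2 (ENSMUSG00000024909) is at chr19:5473954-5482517, plus strand, and Fbln1 (ENSMUSG00000006369) at chr15:85205949-85286535, plus strand. Fbln2 (ENSMUSG00000064080) is at chr6:91212455-91272540 and Mfap5 (ENSMUSG00000030116) at chr6:122505845-122529290, both on the plus strand, and Fbln5 (ENSMUSG00000021186) is at chr12:101746565-101819055, minus strand. Eln, Fbn1, Fbn2, Efemp2 and Mfap4 overlap another counted gene on the opposite strand. For Mfap4 that gene is Mapk7, with 2945 UMIs in PC5 and 1780 in PC20 beside 19 and 1 of Mfap4. The other 5 overlap none.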

How the data were processed

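The series holds 2 libraries of cultured mouse brain pericytes, prepared with a 10x 3′ kit (v3.1), 1 library of passage 5 (PC5) and 1 of passage 20 (PC20). The authors mapped reads to mm10 with Cell Ranger 5.0 (per the labels and the methods of the study) and deposited whole-number counts of UMIs per gene and barcode, with 10629 barcodes for PC5 and 4884 for PC20. The study's filter was applied, which needs over 1000 genes and a mitochondrial share under 20% (9950 and 4749 cells, holding 223054273 and 191122251 UMIs). No doublet caller was run. Leaving out the deepest 5% of cells was run only as an alternative, and the reported values keep those cells. UMIs were summed over cells and scaled to CPM with exact Poisson intervals. Log2 ratios carry exact conditional binomial intervals, and shares carry Clopper-Pearson intervals (95%). Thinning drew each cell down to 10500 UMIs, a depth set from the 10th percentile over all kept cells in steps of 500. A floor of 3 counts gave limits for shares of 0. With 1 library per passage no p-value was computed, and cells were not treated as replicates.

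The members and the marker, reference and partner lists were chosen with earlier results of these data known. Named genes were the 10 members, the reference and marker genes, the 5 partner genes with the largest log2 ratio in each direction and the 3 genes with the highest r to each member, leaving out mitochondrial and ribosomal protein genes and unnamed gene models. One of the genes that this rule names is not reported here. Other partner genes, the genes of the Fbln2 split and those set beside Eln were added after values were seen. Positions came from GENCODE M21, in which 31011 of 31053 gene identifiers were found, and promoters from RefSeq. A planned comparison of protein sequences was not run. The scripts (Python 3.11.15, numpy 2.4.6, scipy 1.17.1, pandas 2.3.3) were tested on simulated data. Alternatives were other cell filters, scalings, thinning depths and limits.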

Additional observations from a re-analysis of the deposited data

Results flagged for a closer look

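Barcodes outside the cell filter also held UMIs of the 10 genes. The 679 PC5 barcodes left out had a summed level of 1088.5 CPM (95% Poisson interval 1022 to 1158) beside 1493 CPM in the kept cells, and the 135 PC20 barcodes left out had 206.4 CPM (146 to 283) beside 202 CPM. These 2 values were singled out as a signal in data that the comparisons do not use. The source of these UMIs was not tested.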

How the results depend on the processing

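No log2 ratio of a member changed sign under any alternative run. Of the 68 values of log2 ratios under alternatives, 55 stayed within the counting interval of the reported value and 13 moved outside it. Those that moved were of Eln, Fbn1, Fbn2, Efemp2, Fbln1, Fbln2 and Fbln5. Fbn2, for example, was at 5.99 in place of 5.44 in cells without a UMI of Mki67 or Top2a. Lowering the limit on detection to 1% of cells brought in Eln, so that 1 member, in place of 0, was at least 2-fold higher in PC20. At 4-fold, 6 members were higher in PC5, and the share of all genes at that fold is not given here. Of the shares of cells under alternatives, 44 moved outside the interval of the reported share and 36 stayed within it. The share of Efemp2 in PC5 was 40.1% at 5000 UMIs and 82.5% unthinned, in place of 64.9%. The share of Fbn1 in PC20 was 5.17% at 5000 UMIs and 33.0% unthinned, in place of 11.4%. The reported shares thus hold for the chosen depth only. The number of members found per cell is not given here at other depths. The median r in PC20 was 0.111 on unthinned scaled cells in place of 0.0328. Larger shifts stayed within the wide counting intervals of Efemp1, Mfap5 and Mfap4. The ratio of Efemp1 was 13.99 in cells without a UMI of Mki67 or Top2a and 14.47 as a mean over cells. That of Mfap5 was 9.46 with cells thinned and 11.09 as a mean over cells, and that of Mfap4 was 1.60 with cells thinned. Efemp1 had no PC20 UMI after thinning and gave no ratio, and Mfap4 and Mfap5 gave none in cells without a UMI of Mki67 or Top2a. The ratio of Eln was -1.34 without the 5 PC20 cells with the most Eln UMIs, an alternative chosen after seeing the data, and -1.26 with cells thinned. The causes were not tested. No paired analysis was possible because each passage is 1 library, and no replicate could be left out. Levels under about 0.02 CPM rest on 4 UMIs or fewer.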

Other observations

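The PC20 cells with Eln UMIs were few, and they are described here after their UMIs were seen to lie close together. The 67 cells with at least 1 Eln UMI were set against the 4682 others by CPM over their summed UMIs, at median depths of 50087 and 33217 UMIs. Bgn, the small matrix proteoglycan biglycan, was at 243 CPM in the Eln cells and 12.3 CPM in the others (log2 ratio 4.30). Inmt, a methyltransferase, was at 73.7 and 7.05 CPM, Ogn, the proteoglycan osteoglycin, at 237 and 55.3 CPM, and Col1a1 at 44.6 and 5.06 CPM. Thbs1 was at 39.0 and 5.85 CPM. Fbn2 was the member that differed most, at 4.21 and 0.274 CPM (20 UMIs in 8 of the Eln cells, log2 ratio 3.94, interval 3.12 to 4.72). Efemp2 (64.9 and 43.1 CPM), Fbln5 (11.4 and 7.36 CPM), Fbn1 (17.1 and 11.8 CPM) and Fbln2 (175 and 135 CPM) were also higher. Efemp1 and Mfap5 had no UMI in the Eln cells, but the library held only 2 and 4, too few to show a difference. Acta2 (121 and 47.3 CPM) and Pdgfrb (14.7 and 5.19 CPM) were higher in the Eln cells, and Col1a2 had 0 UMIs there and 9 in the others. Mki67 (98.6 and 163 CPM) and Top2a (178 and 251 CPM) were lower. In Tagln, 20 of the 44 UMIs of the library lay in 1 Eln cell.

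With depth held equal by thinning, Eln was in 8.70% of the 138 PC20 cells with a UMI of Bgn and in 0.208% of the 4336 without, and in 5.00% of the 180 with a UMI of Inmt and 0.279% of the 4294 without. The log2 ratios of means were 5.35 (interval 4.05 to 6.70) and 3.94 (2.55 to 5.25). They rest on 13 Eln UMIs in the cells with Bgn and 9 in the cells with Inmt. Both genes were chosen after values were seen, so these splits describe the same Eln cells and add no support. In PC5, Eln was in 0.214% of the 8402 cells with Bgn and in 0.225% of the 445 without. Whether the few Eln cells of PC20 are 1 lineage was not tested.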
